A study of Mirounga angustirostris with 8 samples.

Results

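Myosin light chains, the kinases that phosphorylate them and the myosin-binding proteins of the thick filament were followed in skeletal muscle of molting northern elephant seals (NES, Mirounga angustirostris). The set holds 10 genes chosen by symbol: MYL1, MYL2, MYL3, MYL6B, MYLPF, MYLK2, MYLK4, MYBPC1, MYBPC2 and MYBPH. All 10 were found among the 24341 gene entries of the deposited count table and all 10 passed the filter on low counts, which 14314 genes passed.

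RNA was sequenced from biopsies of the longissimus dorsi, a swimming muscle of the back, of adult female seals sampled in the wild. The post-molt group comprised 4 libraries (seals 4448, 5572, 9678 and X410) from animals late in the molt, after a fast on land with reduced activity. In the study as a whole, late samples came on average 34 days after early ones. The pre-molt group comprised 4 libraries (seals 5572, 5842, 6762 and C497) from animals that had been ashore for no more than 5 days. Seal 5572 was the only one of the 7 seals with a library in both groups, so the contrast is mainly between different animals, and molt, fasting and reduced activity cannot be told apart. No genotype or drug separated the groups, and both were sampled under sedation. The sample labels name an Illumina TruSeq kit for the libraries while the study's methods name a NEBNext kit, and that difference could not be settled here. In whole-muscle RNA, fewer fibers of one type and less RNA per fiber cannot be told apart.

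Myosin, the motor of the thick filament, carries on each head an essential light chain and a regulatory light chain. Fast and slow fibers build these from different genes. Myosin-binding protein C also has a fast-type and a slow-type gene. It tethers thick filaments to thin filaments and limits how heads bind actin. Calcium and calmodulin activate light chain kinases, which phosphorylate the regulatory light chain and raise the force produced at a given calcium level in fast fibers. Muscle relieved of its load in land mammals is known for shifts between the fast and slow forms of such proteins.

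Libraries held 30770425 to 61220136 counted reads post-molt and 37899145 to 56141499 pre-molt, and the 10 genes took 2.83 to 3.87% of them post-molt and 2.61 to 4.38% pre-molt. The lowest count of any of the 10 genes in any library was 300 reads (MYLK4), so counting error was small beside the spread between libraries. Values below are CPM, the counts-per-million unit, on library sizes scaled with TMM factors, and fold changes are post-molt over pre-molt. Skeletal fiber markers were abundant in every library, with all 6 detected and a summed level of 160960 to 230940 CPM post-molt and 174690 to 276720 CPM pre-molt. Within that sum, 1 marker had a positive log2 fold change and 5 a negative one. MB was at 0.67 and ACTA1 at -0.93, and neither passed in edgeR (adjusted p = 0.248 and 0.123). Both passed in DESeq2 (adjusted p = 0.0281 and 0.00406). TTN ran from 1630 to 25276 CPM post-molt and from 1152 to 28797 CPM pre-molt. The sum thus does not stand for each marker. The summed smooth muscle markers (6 of 6 detected, none at 0 in every library) were at 173 to 322 CPM post-molt and 170 to 301 CPM pre-molt. Fibroblast markers (6 of 6 detected) stood at 169 to 443 CPM post-molt and 413 to 1355 CPM pre-molt, with the highest value in pre-molt 5842. Adipocyte markers (5 of 5 detected) summed to 28.6 to 94.2 CPM post-molt and 54.2 to 189 CPM pre-molt, and endothelial markers (5 of 5 detected) to 332 to 381 CPM post-molt and 367 to 488 CPM pre-molt, both highest in pre-molt 5842 and C497.

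None of the 10 genes passed edgeR's quasi-likelihood test at an adjusted p below 0.05, either higher post-molt (0 of 10, where 0.217% of all genes tested passed) or lower post-molt (0 of 10, against 0.133% of all genes). At an unadjusted p below 0.05, 2 were higher post-molt (MYLK2 and MYLK4, against 5.2% of all genes) and 2 were lower (MYL1 and MYBPC2, against 6.22%). DESeq2, the tool the study used, called 1 gene higher at an adjusted p below 0.05 (MYLK2, against 3.31% of the genes to which it gave an adjusted p) and 1 lower (MYBPC2, against 3.13%). Only MYLK2 had groups that did not overlap, 1 of 10 genes, beside 9.15% of all genes tested. The median log2 fold change of the 10 genes was -0.30, with 3 positive and 7 negative, and that of all genes tested was -0.04.

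**Figure D1:**
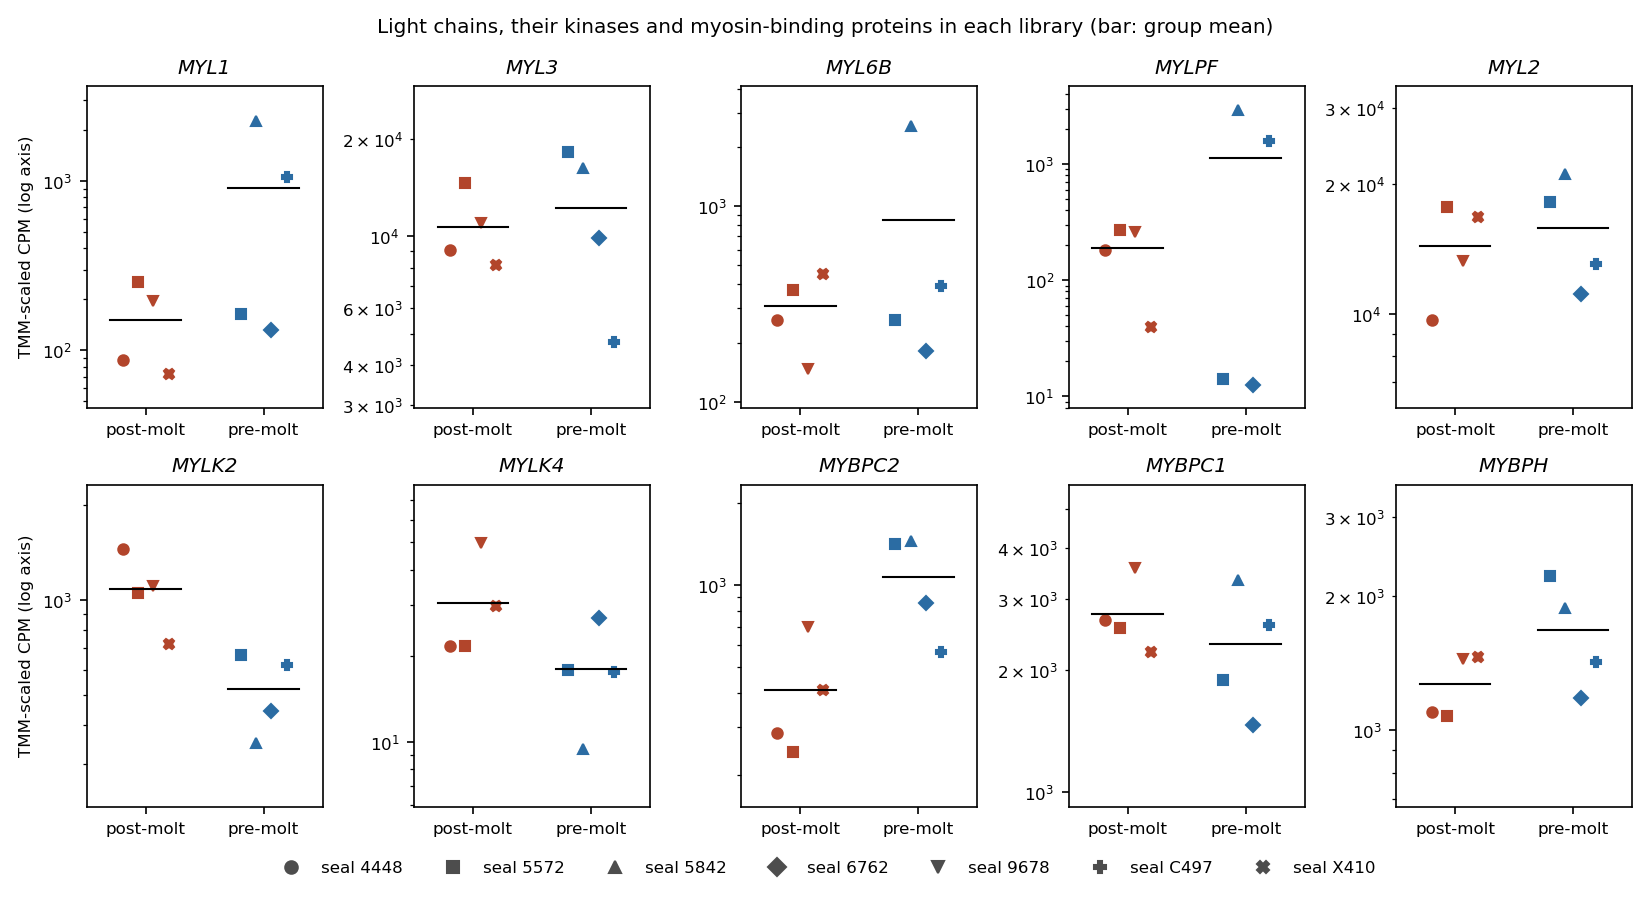
Expression of the 10 genes in each library, as TMM-scaled CPM on a log axis whose range differs between panels, with post-molt libraries left of pre-molt libraries, 1 symbol per seal and a bar at the group mean. MYLK2 is the only gene whose groups do not overlap, while MYL1 and MYLPF split the pre-molt libraries into a high pair (5842 and C497) and a low pair (5572 and 6762).

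The kinases lay higher post-molt. MYLK2 encodes the light chain kinase of skeletal muscle. Its level was 1444, 1047, 1103 and 722 CPM in post-molt libraries 4448, 5572, 9678 and X410, against 668, 351, 443 and 622 CPM in pre-molt libraries 5572, 5842, 6762 and C497. Every post-molt library was above every pre-molt library, the nearest pair being post-molt X410 and pre-molt 5572. Group means were 1079 ± 296 CPM post-molt and 521 ± 149 CPM pre-molt (SD, n = 4 each). The log2 fold change was 1.05 ± 0.27 (SE), a 2.07-fold difference with a 95% interval of 1.39 to 3.10-fold, and missed the threshold in edgeR (unadjusted p = 0.00186, adjusted p = 0.101). DESeq2 gave a nearly equal log2 fold change of 1.07 with an adjusted p of 0.00302, and limma-voom gave 1.05 with an adjusted p of 0.0675, so the call depends on the tool. With any 1 library left out in edgeR, the log2 fold change stayed between 0.88 and 1.20, with an unadjusted p of at most 0.00785 and an adjusted p of 0.102 to 0.287. In seal 5572, sampled at both times, MYLK2 stood at 1047 CPM post-molt and 668 CPM pre-molt, a difference of 0.65 on the log2 scale in the same direction.

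MYLK4 encodes another member of the light chain kinase family. It measured 21.7, 21.6, 49.6 and 29.9 CPM in post-molt 4448, 5572, 9678 and X410, against 17.9, 9.41, 27.1 and 17.5 CPM in pre-molt 5572, 5842, 6762 and C497. The groups overlapped through pre-molt 6762, which exceeded post-molt 4448 and 5572. Its log2 fold change was 0.77 ± 0.35 (SE) with an unadjusted p of 0.0451 and an adjusted p of 0.417 in edgeR. It ranged from 0.44 to 1.04 with 1 library left out, and 3 of those 8 fits kept an unadjusted p below 0.05. MYLK3, the light chain kinase best known from heart, was not one of the 10 genes but lay in the same direction, at 115, 152, 101 and 152 CPM in post-molt 4448, 5572, 9678 and X410, against 105, 75.6, 56.6 and 102 CPM in pre-molt 5572, 5842, 6762 and C497. Its log2 fold change was 0.61 ± 0.23 (SE; edgeR unadjusted p = 0.022, adjusted p = 0.308), with overlap between the groups.

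Of the myosin-binding proteins, the fast form lay lower post-molt. MYBPC2 encodes fast-type myosin-binding protein C. It was counted at 285, 244, 697 and 411 CPM in post-molt 4448, 5572, 9678 and X410, against 1410, 1451, 859 and 564 CPM in pre-molt 5572, 5842, 6762 and C497. Post-molt 4448, 5572 and X410 were below all pre-molt libraries, and the overlap came from post-molt 9678, which exceeded pre-molt C497. Group means were 409 ± 205 CPM post-molt and 1071 ± 432 CPM pre-molt (SD, n = 4 each). Post-molt over pre-molt, the log2 fold change was -1.39 ± 0.37 (SE), with a 95% interval of -2.19 to -0.58, and missed the threshold in edgeR (unadjusted p = 0.00266, adjusted p = 0.123). Under DESeq2 the adjusted p was 0.00704, and under limma-voom it was 0.0742. Leaving out each library in turn moved the edgeR estimate between -1.77 and -1.18, and the unadjusted p was below 0.05 in all 8 fits. In seal 5572 the level was 244 CPM post-molt and 1410 CPM pre-molt, or -2.53 on the log2 scale, which was the largest difference of this seal in the negative direction among the 10 genes. Fibroblast markers had negative log2 fold changes as well (6 of 6, median -1.46), as did adipocyte markers (4 of 4 tested, median -1.17), and the part of these cells in this result was not tested.

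MYBPC1 encodes the slow-type form and did not show the same pattern. Its values were 2658, 2537, 3575 and 2220 CPM in post-molt 4448, 5572, 9678 and X410, against 1891, 3341, 1465 and 2576 CPM in pre-molt 5572, 5842, 6762 and C497. The groups overlapped widely, since pre-molt 5842 was above 3 of the 4 post-molt libraries. For MYBPC1 the log2 fold change was 0.25 ± 0.27 (SE; edgeR adjusted p = 0.834), with a 95% interval of -0.34 to 0.83. MYBPH encodes myosin-binding protein H, a smaller relative of the C proteins found in the A band. For MYBPH the libraries gave 1096, 1072, 1445 and 1454 CPM in post-molt 4448, 5572, 9678 and X410, against 2211, 1879, 1181 and 1421 CPM in pre-molt 5572, 5842, 6762 and C497. Pre-molt 5572 and 5842 stood above all post-molt libraries while pre-molt 6762 and C497 fell within their range. MYBPH had a log2 fold change of -0.40 ± 0.24 (SE; edgeR adjusted p = 0.588). In seal 5572 MYBPH was at 1072 CPM post-molt and 2211 CPM pre-molt.

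MYL1 encodes the fast essential light chain. It was measured at 87.3, 252, 196 and 72.7 CPM in post-molt 4448, 5572, 9678 and X410, against 163, 2273, 131 and 1052 CPM in pre-molt 5572, 5842, 6762 and C497. The high pre-molt values came from 5842 and C497, while pre-molt 5572 and 6762 lay inside the post-molt range. Group means were 152 ± 86.4 CPM post-molt and 905 ± 1007 CPM pre-molt (SD, n = 4 each). Between the groups the log2 fold change was -2.57 ± 0.78 (SE), with a 95% interval of -4.28 to -0.87, an unadjusted p of 0.00628 and an adjusted p of 0.183 in edgeR. DESeq2 gave an adjusted p of 0.0603, and limma-voom gave a log2 fold change of -1.85. The estimate stayed negative, between -2.94 and -1.56, with any 1 library left out, and without pre-molt 5842 it was -1.56. Without both pre-molt 5842 and C497, an alternative chosen after seeing the data, it was 0.06, and in seal 5572 the post-molt value exceeded the pre-molt value (252 and 163 CPM).

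MYL3 encodes the essential light chain of slow fibers and ventricle. Post-molt 4448, 5572, 9678 and X410 had 9059, 14596, 10994 and 8119 CPM, against 18188, 16214, 9867 and 4699 CPM in pre-molt 5572, 5842, 6762 and C497. The post-molt libraries all lay within the pre-molt range. MYL3 had a log2 fold change of -0.20 ± 0.36 (SE; edgeR adjusted p = 0.914), with a 95% interval of -0.98 to 0.59. MYL6B encodes an essential light chain of slow skeletal muscle and of non-muscle cells and is related in sequence to MYL6, and how reads divided between them was not tested. It was counted at 262, 374, 147 and 448 CPM in post-molt 4448, 5572, 9678 and X410, against 261, 2578, 181 and 391 CPM in pre-molt 5572, 5842, 6762 and C497. Pre-molt 5842 alone stood apart and the other pre-molt libraries were inside the post-molt range. The log2 fold change of -1.47 ± 0.71 (SE; edgeR unadjusted p = 0.0601, adjusted p = 0.468) became 0.17 without pre-molt 5842, and DESeq2 gave this gene no p because of an outlying count. That library was also the highest in the summed fibroblast markers (1355 CPM, with 413 to 574 CPM in the other pre-molt libraries) and adipocyte markers (189 CPM, with 104 CPM in pre-molt C497). The part of these cells in the MYL6B, MYL1 and MYLPF values was not tested.

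Of the 10 genes, MYLPF had the widest spread between libraries within groups. MYLPF encodes the fast regulatory light chain, the substrate of MYLK2 in fast fibers. Its values were 183, 271, 258 and 39.7 CPM in post-molt 4448, 5572, 9678 and X410, against 14.1, 2932, 12.6 and 1583 CPM in pre-molt 5572, 5842, 6762 and C497. Every post-molt library was thus above pre-molt 5572 and 6762 and below pre-molt 5842 and C497. The highest and lowest pre-molt libraries differed 232-fold, whereas the post-molt libraries differed 6.82-fold. The read counts behind the low values were 591 in pre-molt 5572 and 683 in pre-molt 6762, so this spread is not one of counting error. The standard deviation of MYLPF within groups was 3.14 on the log2 CPM scale, rank 23 of the 14314 genes tested.

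The group comparison of MYLPF depended on how libraries were averaged. The log2 fold change was -2.60 ± 1.28 (SE) in edgeR, with a 95% interval of -5.37 to 0.18 and an adjusted p of 0.482, and it was -0.17 in limma-voom, which averages log values. It was -1.52 without pre-molt 5842 and 3.84 without both pre-molt 5842 and C497 (edgeR adjusted p = 0.131), the alternative chosen after seeing the data. Seal 5572 had 271 CPM of MYLPF post-molt and 14.1 CPM pre-molt, a 19.2-fold difference opposite in direction to the edgeR estimate. MYL2, the regulatory light chain of slow fibers and ventricle, stood at 9706, 17709, 13264 and 16750 CPM in post-molt 4448, 5572, 9678 and X410, against 18176, 21062, 11142 and 13076 CPM in pre-molt 5572, 5842, 6762 and C497. These groups overlapped, and the whole range in either group was below 2-fold (1.82-fold post-molt and 1.89-fold pre-molt). The log2 fold change of MYL2 was -0.14 ± 0.26 (SE; edgeR adjusted p = 0.913), with a 95% interval of -0.72 to 0.43.

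**Figure D2:**
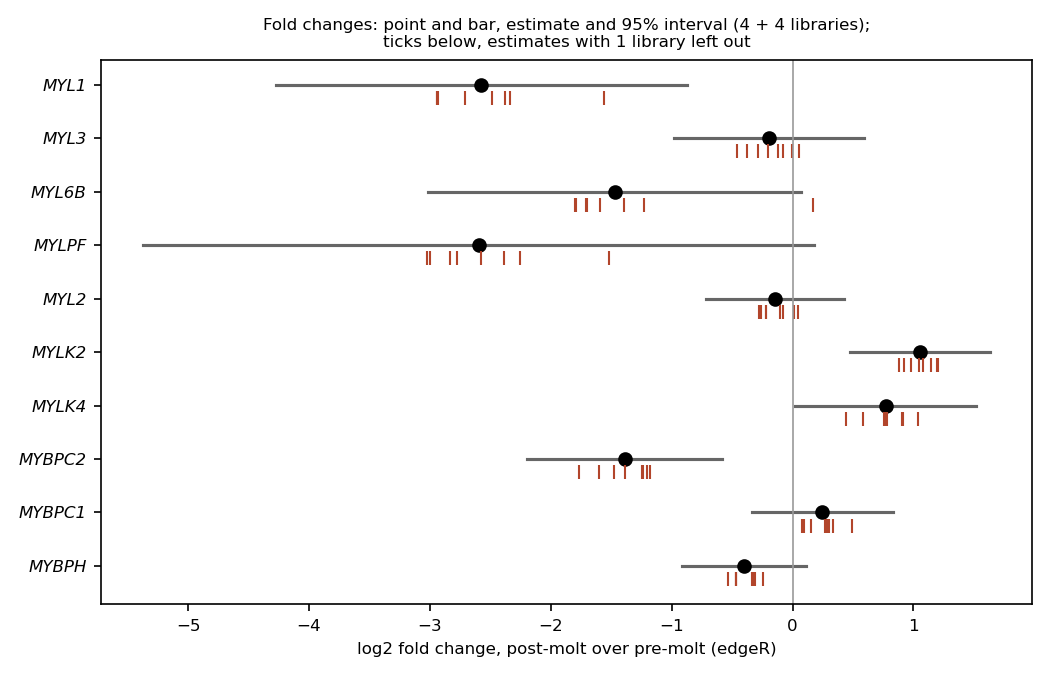
Log2 fold change of each gene, post-molt over pre-molt, from edgeR. Points and bars give the estimate and its 95% interval from 4 post-molt and 4 pre-molt libraries, and ticks below give the estimates with 1 library left out. The intervals of MYLK2 (0.47 to 1.63), MYLK4 (0.02 to 1.52), MYBPC2 (-2.19 to -0.58) and MYL1 (-4.28 to -0.87) and their ticks stay on 1 side of 0. The tick of MYL6B without pre-molt 5842 crosses to 0.17, and ticks of MYL2 and MYL3 reach 0.046 and 0.052.

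A fast and a slow form of the same subunit can be compared within a library as a share of their summed reads, which cancels library size. These shares are given as descriptions with no test, and because gene lengths differ they are shares of reads, not of molecules. MYL1 took 0.954, 1.70, 1.75 and 0.887% of the reads of MYL1 and MYL3 in post-molt 4448, 5572, 9678 and X410, against 0.890, 12.3, 1.31 and 18.3% in pre-molt 5572, 5842, 6762 and C497. For the regulatory pair, MYLPF took 1.85, 1.505, 1.91 and 0.236% of the reads of MYLPF and MYL2 in those post-molt libraries, against 0.0773, 12.2, 0.113 and 10.8% in the pre-molt ones. The 2 libraries with a high MYL1 share, pre-molt 5842 and C497, were the same ones with a high MYLPF share. For the single-library shares the 95% Wilson intervals were narrow (0.0713 to 0.0838% at the lowest MYLPF share) and covered counting error only.

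The MyBP-C pair behaved differently from the light chains. MYBPC2 took 9.67, 8.76, 16.3 and 15.6% of the reads of MYBPC2 and MYBPC1 in post-molt 4448, 5572, 9678 and X410, against 42.7, 30.3, 37.0 and 18.0% in pre-molt 5572, 5842, 6762 and C497. The 4 post-molt shares all lay below the 4 pre-molt shares, and the closest pair was post-molt 9678 and pre-molt C497. On the log2 scale the ratio of MYBPC2 to MYBPC1 reads averaged -2.85 ± 0.53 post-molt and -1.15 ± 0.77 pre-molt (SD, n = 4 each), a difference of -1.70. Among pre-molt libraries MYBPC1 was highest in 5842 and C497, as the fast light chain MYLPF was (Pearson r over 8 libraries = 0.80). The MYBPC2 to MYBPC1 ratio is thus a ratio of 2 named forms, not a measure of fast over slow fibers. The log2 ratio of fast to slow reads averaged -6.29 ± 0.53 post-molt and -4.51 ± 2.35 pre-molt for the essential light chains. For the regulatory light chains it averaged -6.54 ± 1.46 post-molt and -6.50 ± 4.12 pre-molt. Pre-molt 5572 held the lowest MYLPF share of the 8 libraries and at the same time the highest MYBPC2 share. The MYBPC2 share thus did not follow the MYLPF share across libraries.

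**Figure D3:**
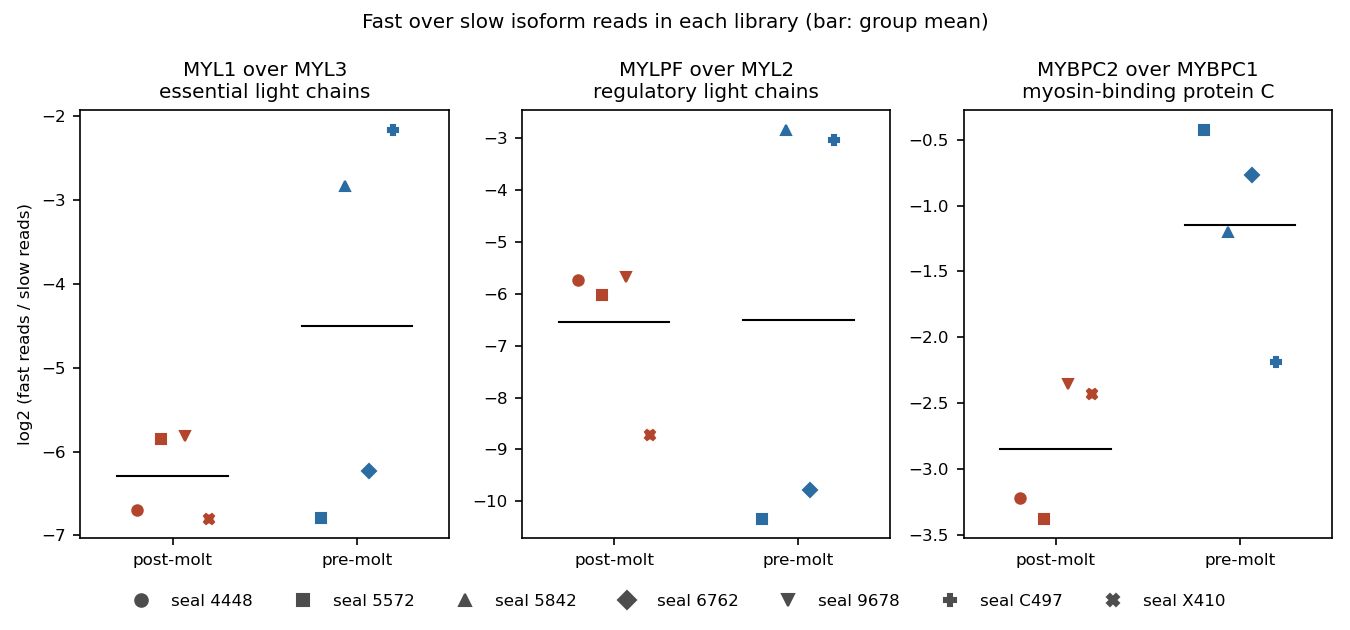
Log2 ratio of fast-type to slow-type reads in each library, for the essential light chains, the regulatory light chains and myosin-binding protein C. Post-molt libraries are left of pre-molt libraries and a bar marks the group mean. The light chain panels show pre-molt 5842 and C497 above all others, and the myosin-binding protein C panel shows all post-molt libraries (-3.38 to -2.36) below all pre-molt libraries (-2.19 to -0.42).

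Across the 8 libraries, the genes whose log2 CPM was most like that of MYLPF (Pearson r over 8 libraries, among 3504 genes with a mean log2 CPM of at least 5) were TNNI2, the fast troponin I (r = 0.99), LAMB2, a laminin chain (r = 0.99), and ATP2A1, the calcium pump of fast fibers (r = 0.95). For MYL1 the nearest gene was TNNC2, the fast troponin C (r = 0.98). These values describe the same 8 libraries and share their depth and donors. TNNI2 had 71.7, 219, 212 and 28.9 CPM in post-molt 4448, 5572, 9678 and X410, against 6.28, 2471, 5.61 and 1345 CPM in pre-molt 5572, 5842, 6762 and C497, the same order of high and low pre-molt libraries as MYLPF. The nearest gene to MYBPC2 was PGM1, an enzyme of glycogen metabolism (r = 0.96), with MYOM2, a protein of the M band, also among the nearest (r = 0.94). MYLK2 lay closest to USP54, named as a ubiquitin-specific peptidase (r = 0.99), and MYL2 to MTIF3, a mitochondrial translation initiation factor (r = 0.98). Among the 10 genes themselves, the highest r were 0.83 for MYBPC2 with MYBPH, 0.81 for MYL1 with MYLPF and 0.80 for MYLPF with MYBPC1, and MYLPF with MYBPC2 gave -0.06.

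**Figure D4:**
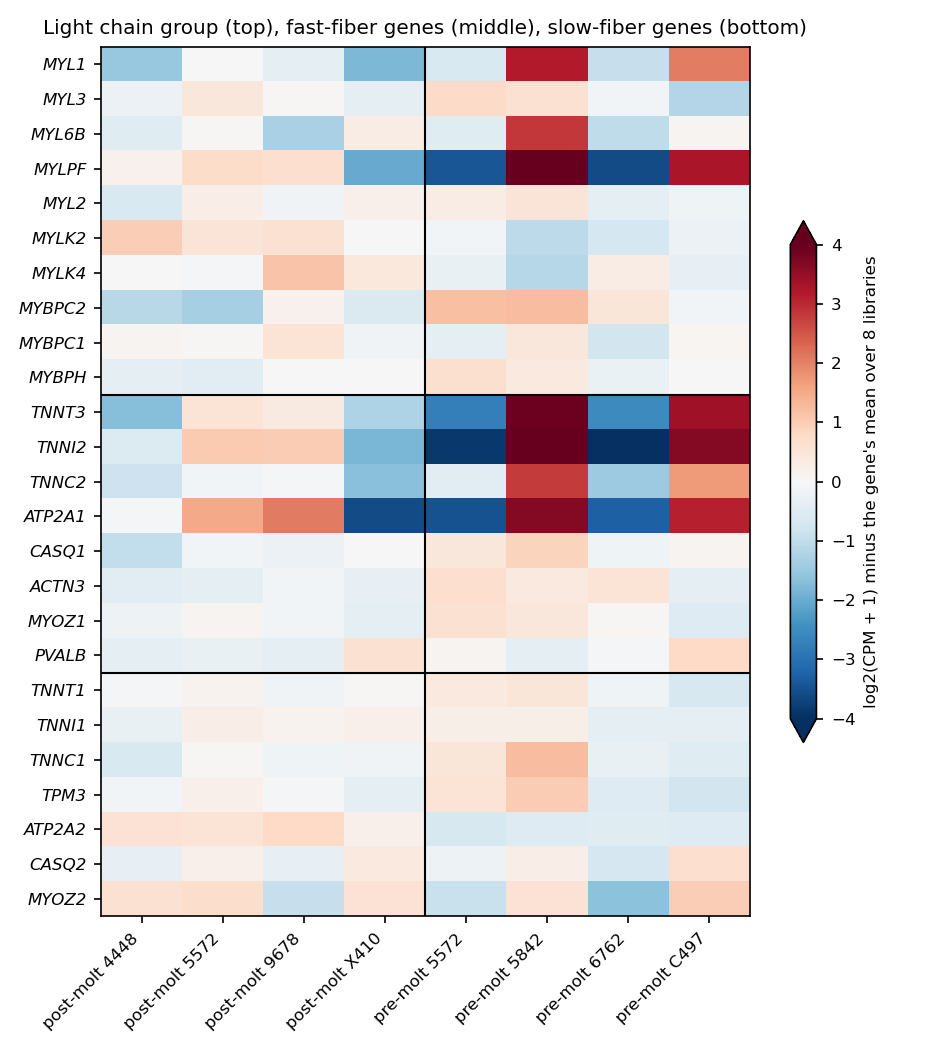
Log2(CPM + 1) of each gene minus its mean over the 8 libraries, with the 10 genes at the top, fast-fiber genes in the middle and slow-fiber genes at the bottom, and post-molt libraries left of pre-molt libraries. Colors saturate at 4 in either direction. MYLPF, MYL1, TNNT3, TNNI2, TNNC2 and ATP2A1 are high in pre-molt 5842 and C497 together, whereas MYBPC2 and ACTN3 are not high in pre-molt C497.

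Of the other fast-fiber genes, 4 shared the split of the pre-molt libraries seen for MYLPF and 4 did not. TNNT3, TNNI2, TNNC2 and ATP2A1 were highest in pre-molt 5842 and next in C497, whereas CASQ1, a calcium-binding protein of fast fibers, ACTN3, MYOZ1, a Z-disc protein, and PVALB, a calcium buffer, were not. The r with MYLPF over the 8 libraries was 0.87 to 0.99 for the first 4. It was 0.24 for CASQ1, -0.40 for ACTN3, -0.17 for MYOZ1 and -0.32 for PVALB. PVALB was near the floor, with means of 0.257 CPM post-molt and 0.467 CPM pre-molt, so its order, r and sign carry little weight. Of 11 listed fast-fiber genes outside the set, 8 were found and tested. All 8 had a negative log2 fold change (median -1.13), beside 7666 of all 14314 genes tested (median -0.04). At an unadjusted p below 0.05 in edgeR, 4 were lower post-molt, against 6.22% of all genes. None (0) passed in edgeR or in DESeq2. TNNT3, the fast troponin T, had a log2 fold change of -2.91 ± 1.17 and TNNC2 one of -2.03 ± 0.72 (SE; edgeR adjusted p = 0.344 and 0.263), and without both pre-molt 5842 and C497 these were 2.48 and 0.34. ACTN3, the alpha-actinin of fast fibers, lay at 3453, 3648, 4453 and 3827 CPM in post-molt 4448, 5572, 9678 and X410, against 7642, 6240, 7012 and 3654 CPM in pre-molt 5572, 5842, 6762 and C497, so pre-molt C497, high in MYLPF, was low in ACTN3 (log2 fold change -0.67 ± 0.24, SE; edgeR adjusted p = 0.268). The summed level of the fast-fiber genes was 5668 to 7997 CPM post-molt and 9515 to 22567 CPM pre-molt. ACTN3 alone made up most of this sum in pre-molt 5572 and 6762 (sums of 11496 and 9515 CPM). In these same libraries TNNT3 and TNNI2 were below every post-molt library, so the sum does not stand for each fast-fiber gene. The summed level of the slow-fiber genes was 34395 to 44121 CPM post-molt and 26887 to 58244 CPM pre-molt.

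Of 8 listed slow-fiber genes outside the set, 7 were tested, and the median of their log2 fold changes was -0.07. In edgeR 1 of the 7 passed, in the higher direction, against 0.217% of all genes. That gene was ATP2A2, the calcium pump of slow fibers and heart, which was higher post-molt in all 4 libraries (log2 fold change 1.09 ± 0.20, SE; edgeR adjusted p = 0.0419). Its call was lost in 12 of 19 alternatives, including the removal of any single library other than pre-molt 5842, with adjusted p of 0.0526 to 0.122 in those removals. The nearest slow-fiber genes after it by p were TNNC1, slow troponin C, at -0.60 ± 0.34, and TPM3, slow tropomyosin, at -0.34 ± 0.35 (SE; edgeR adjusted p = 0.569 and 0.815).

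Other light chains and the rest of the phosphorylation pathway gave no call. Among 8 further light chain genes, 4 were tested and all 4 had a negative log2 fold change without passing (MYL6 -0.58 ± 0.37, MYL5 -0.46 ± 0.54 and MYL4 -1.16 ± 1.23, SE; edgeR adjusted p of 0.633 to 0.849), although MYL5 was at 0.14 in limma-voom. The phosphatase that removes the phosphate from regulatory light chains gave 0 calls among 7 genes tested in edgeR, 0 at an unadjusted p below 0.05 and 0 in DESeq2, with PPP1R14B, an inhibitor subunit, at -0.40 ± 0.21, PPP1R12C, a targeting subunit, at 0.42 ± 0.24 and PPP1R14C, another inhibitor, at -0.95 ± 0.59 (SE; edgeR adjusted p of 0.548 to 0.620). For calmodulin, the calcium sensor of the kinases, CALM2 had a log2 fold change of -0.19 ± 0.22 and CALM3 one of 0.20 ± 0.21 (SE; edgeR adjusted p = 0.850 and 0.818), and neither passed in DESeq2. MYBPHL, the relative of MYBPH named for its likeness to it, was counted at a mean below 1 CPM in both groups (0.727 CPM post-molt and 0.506 CPM pre-molt).

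The thick filament around these proteins gave 1 call in edgeR, lower post-molt, where 0.133% of all genes tested passed in that direction. Of 11 scaffold and assembly genes tested, MYOM2, the myomesin that crosslinks myosin at the M band of fast fibers, was lower post-molt (log2 fold change -2.13 ± 0.32, SE; edgeR adjusted p = 0.0177). MYOM2 measured 210, 293, 474 and 414 CPM in post-molt 4448, 5572, 9678 and X410, against 1730, 2129, 1349 and 895 CPM in pre-molt 5572, 5842, 6762 and C497, with no overlap. Its call was lost in 6 of 19 alternatives, among them the removal of post-molt 4448 (adjusted p = 0.0563), post-molt 5572 (adjusted p = 0.0619) or pre-molt 5572 (adjusted p = 0.0711). MYOM1 followed at -0.60 ± 0.22 and TRIM55, a ubiquitin ligase of the M band, at -0.37 ± 0.21 (SE; edgeR adjusted p = 0.290 and 0.559). Of 10 sarcomeric heavy chain symbols, 2 were found in the count table. MYH7B alone was tested, at 0.23 ± 0.28 (SE, edgeR adjusted p = 0.855). MYH1, MYH2, MYH4 and MYH7 were not found by symbol, so the fast-fiber and slow-fiber sums hold no heavy chain. Heavy chains under other entry names were not analysed here.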

How the data were processed

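RNA of longissimus dorsi from 8 NES biopsies was counted per gene. Per the study's methods and the sample labels, bcl2fastq 2.20 made the reads and STAR mapped them to another seal's genome, that of the Hawaiian monk seal. Some samples had sequenced poorly, which the authors put down to low quality input RNA. They therefore kept the 4 samples per condition with the most unique reads. The deposited values are whole-number counts per gene, which STAR takes from reads aligned to 1 place. The RNA quality of the 8 libraries was not tested here. Which strand was counted is not given in the sources used here, so overlapping antisense genes cannot be told apart. The authors used R 3.4.3 and DESeq2 1.18.1.

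Of 24349 entries, 8 name no gene (0.0145 to 0.0187% of reads) and were left out. Genes were filtered with filterByExpr (minimum count 10, minimum total 15), scaled with TMM factors and tested, unpaired, with edgeR 4.0.16 (quasi-likelihood test, Benjamini-Hochberg over 14314 genes, threshold 0.05) in R 4.3.3. Intervals are 95% from the fit. Alternatives were DESeq2 1.42.0 (477 genes without a p, 9284 without an adjusted p), limma-voom 3.58.1, other size factors, other filters, robust edgeR, no 20 most abundant genes, and leaving out libraries. Log2 CPM used a prior count of 2. No 2 libraries were copies (28 pairs, lowest chi-square per degree of freedom 84.1).

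All 10 genes are named, and of each other list every called gene and the 3 with the smallest p. Likeness names come from the 3 genes with the highest r per gene, and LOC entries were left unnamed. The values of 1 gene that this rule names are not reported here. The genes and lists were chosen with earlier results of these data known.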

Additional observations from a re-analysis of the deposited data

Results flagged for a closer look

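Each of 26 groups held the 4 values of 1 condition for 1 gene or 1 isoform ratio. The highest or lowest library was set against the gap to its neighbour, and 2 of the 26 stood apart. Chance would give about 1 in 20 groups if values were normal and groups independent, and 2 of 26 is not far from that rate. The groups share libraries and genes, so the rate is only a guide. MYL6B in pre-molt 5842 was 2578 CPM, with the other pre-molt libraries at 181 to 391 CPM. The log2 ratio of MYLPF to MYL2 reads in post-molt X410 was -8.72, with the other post-molt libraries at -6.03 to -5.68. X410 also had the lowest MYLPF, TNNI2 and ATP2A1 of the post-molt libraries (39.7, 28.9 and 2.99 CPM).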

How the results depend on the processing

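Over 19 alternatives MYLK2 kept a log2 fold change of 0.88 to 1.21 and MYBPC2 one of -1.77 to -1.05, and both passed only in DESeq2 (1 member higher and 1 lower, adjusted p = 0.00302 and 0.00704). All genes called were 31 higher and 19 lower, and they became 128 and 97 with no filter, 335 and 317 in DESeq2, 55 and 39 in limma-voom, 31 lower in robust edgeR, 3 and 2 without both libraries of seal 5572, 0 and 0 without pre-molt 5842 and post-molt 9678 (edgeR, 1330 genes at an unadjusted p below 0.05), and 6 and 3 without both pre-molt 5842 and C497 (added after seeing the data), with 7 to 28 higher and 2 to 21 lower when 1 library was left out.

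Signs turned in 25 values. With 1 library left out, log2 fold changes ranged from -0.28 to 0.046 for MYL2, -0.46 to 0.052 for MYL3, -1.80 to 0.17 for MYL6B, -1.80 to 0.31 for MYL4, -0.79 to 0.14 for MYL5, -0.019 to 0.94 for MYBPHL, -0.30 to 0.0040 for CALM2 and -0.56 to 0.062 for TPM3. Without pre-molt 5842 and post-molt 9678 they were 0.087 for MYL2, 0.40 for MYL6B, 0.11 for MYL5, 0.057 for MYL6, 0.11 for CALM2 and 0.063 for TPM3. Without both pre-molt 5842 and C497 they were 0.061 for MYL1, 0.50 for MYL6B, 3.84 for MYLPF, 0.0019 for MYL4, 0.83 for PPP1R14C, 0.14 for CALM2, 2.48 for TNNT3 and 0.34 for TNNC2. In limma-voom they were 0.14 for MYL5 and -0.93 for MYBPHL. Pre-molt 5842 and post-molt 9678 were the libraries with the lowest shares of uniquely mapped reads. Beyond fewer libraries, the cause was not tested, read mapping and RNA quality included.

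No paired analysis was possible because only 1 seal (5572) has libraries at both times. The planned shares per transcript length were not run, since no transcript lengths were used here. With 4 libraries per group the limit is the spread between libraries. With 1 library per seal and time, differences between seals and between biopsies cannot be told apart. The p-values cover the spread between libraries only, and the libraries of seal 5572 entered every full fit as if from different animals.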
